A study of Homo sapiens with 6 samples.

Results

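PBRT15 is a melanoma cell line grown from a tumor that had become resistant, in an animal, to the BRAF inhibitor PLX8394. Its RNA was compared here, gene by gene, with that of the 1205LuTR parental line from which the tumor had been raised. The members are the 16018 genes, of 60617 gene identifiers in the deposited files, whose value was 10 or more in at least 2 of the 4 libraries compared, and the choice used no difference between the groups. The parental group was 2 libraries of 1205LuTR cells given DMSO, the solvent, without inhibitor. The PBRT15 group was 2 libraries of PBRT15 cells kept in 500 nM PLX8394. A further 2 libraries came from PBRT16, a sister line from another resistant tumor kept in the same dose, and they entered the fit to help estimate the spread between libraries. All 3 lines descend from 1205Lu, a human melanoma line with mutant BRAF, and carry a reporter of ERK activity. Each PBRT line is the cells of 1 tumor, so the line, its growth in an animal and the drug in the medium cannot be told apart in any difference between PBRT15 and parental cells. The labels do not say whether the 2 libraries of a group were separate cultures, so the p-values measure the spread between these libraries, which may be technical.

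BRAF is a kinase that passes signals from cell surface receptors to MEK and ERK, and in melanomas with mutant BRAF it does so without a signal from outside. PLX8394 belongs to the inhibitors called paradox breakers, which block mutant BRAF without activating the pathway in cells where BRAF is normal. SOX10 is a transcription factor that keeps cells in the melanocyte and glial lineage, and melanoma cells that lose it are known to take on an invasive, mesenchymal state. Values below are the normalised read counts deposited per library, which are not corrected for gene length, so levels are compared between libraries and not between genes. A log2 fold change is the PBRT15 mean minus the parental mean of log2(value + 1), which understates the change of genes with low values. A gene is said to have risen or fallen, or to be called, where the adjusted p of limma's moderated test was at most 0.05 and the fold change was at least 2.

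Each of the 6 libraries summed to between 27877963 and 29580752 normalised reads, and the 2 libraries of a group correlated across genes at 0.986 (Pearson's r of log2 values) in both groups. The 10 genes with the largest values took 6.79 and 6.73% of the total in the parental libraries and 8.06 and 7.96% in the PBRT15 libraries.

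In PBRT15, 2203 genes were higher and 1623 lower than in parental cells, which is 13.8% and 10.1% of the genes tested. The changes were often large. Of the genes called, 488 were at least 10-fold higher and 418 at least 10-fold lower, and 84 and 64 passed 100-fold. Changes between 2- and 4-fold made up 1221 of the rises and 858 of the falls. The median log2 fold change over all genes was -0.01, so the calls on both sides were set against a centre near 0. Among protein-coding genes 1850 of 13129 rose and 1224 fell, whereas among long noncoding RNA genes 272 of 2043 rose and 321 fell. Of the genes with a mean value under 100, 18.5% were higher and 15.4% lower, and of those between 100 and 1000, 13.9% and 9.65%. Between 1000 and 10000 the shares were 9.55% and 6.61%, and above 10000 they were 14.1% and 5.59%.

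**Figure D1:**
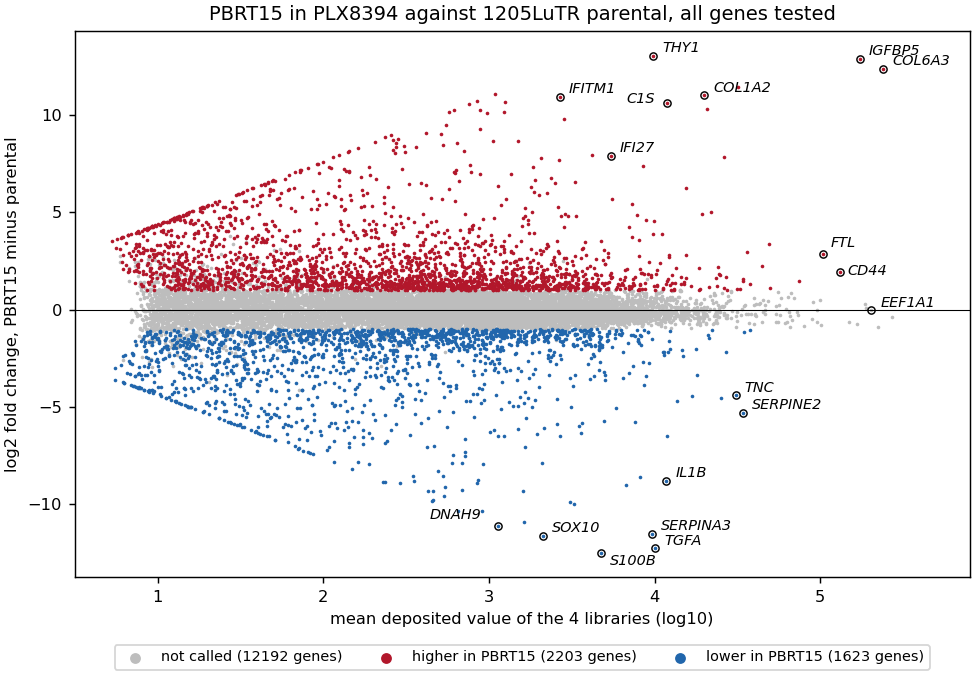
Each point is 1 gene, with the mean deposited value of the 4 libraries on a log10 axis and the log2 fold change of PBRT15 against parental cells on the vertical axis. The 2203 genes that rose are red, the 1623 that fell are blue, and circles mark genes described in the text, from THY1 at the top to S100B at the bottom.

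SOX10 fell to near 0 in PBRT15. Its value was 4360 and 4103 in the parental libraries and 0 and 0.791 in the PBRT15 libraries (log2 fold change -11.63, SE 0.33, adjusted p = 6.33e-05). The gene lies on the minus strand of chromosome 22 at 37970686 to 37987422 (GRCh38). S100B, a calcium-binding protein of melanocytes and glia, was at 10992 and 8075 in parental cells and at 0 and 1.67 in PBRT15. Its relative S100A1 went from 14040 and 12928 to 29.0 and 21.3. Of the 8 melanoma lineage markers tested, these 3 fell. MITF, the master regulator of pigment genes, and TFAP2A, a transcription factor of the neural crest, rose. MITF was at 109 and 113 in parental cells and at 824 and 927 in PBRT15. PAX3, another neural crest regulator, was not called (689 and 731 against 622 and 521), and the pigment genes TYR, TYRP1, MLANA and PMEL were below the filter, with values of 12.2 or less in the parental and PBRT15 libraries. TYR, the key enzyme of pigment synthesis, was listed at 0 in all 4 libraries. In the list of melanosome and pigment genes, 5 of 14 tested, of 30 listed, rose and 4 fell (median 0.53). The largest rise was that of GPNMB, from 1.65 and 8.01 to 1090 and 1737. MLPH, a melanosome transport adaptor, rose from 620 and 649 to 3590 and 3091. EDNRB, the endothelin receptor of melanocytes, had the largest fall, from 165 and 142 to 4.14 and 0. Its call was lost without parental library 1 (log2 fold change -5.98).

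Other members of the SOX family moved with SOX10 or against it. Of the 12 SOX genes tested, a count that includes SOX10 itself, 6 fell and 4 rose (median -0.85, also with SOX10). SOX8, the closest relative of SOX10 together with SOX9, went from 396 and 298 to 1.09 and 2.97. SOX9 itself fell from 8030 and 6364 to 2199 and 2072. SOX5 and SOX2 fell by 2.76 and 3.04 on the log2 scale. SOX4 rose from 362 and 309 to 728 and 1131, and its call was lost without parental library 2 (adjusted p = 0.053). Among other transcription factors of the neural crest and its derivatives, TFAP2A and SNAI2 rose, FOXD3 and POU3F2 fell, and PAX3 was not called (689 and 731 against 622 and 521). FOXD3 was at 181 and 105 in parental cells and at 0 and 0.955 in PBRT15, and POU3F2, also called BRN2, was at 1144 and 833 and then at 4.06 and 0.955.

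The genes below are among the largest rises with a mean of at least 1000 in PBRT15. THY1, a surface glycoprotein of mesenchymal cells and neurons, was at 0 and 4.46 in parental cells and at 19573 and 19758 in PBRT15 (log2 fold change 13.04, SE 0.78). IGFBP5, which binds insulin-like growth factors in the extracellular space, rose from 47.3 and 40.3 to 393408 and 296353. COL6A3, a chain of type VI collagen, rose from 68.7 and 117 to 474129 and 486261. In PBRT15 these last genes had the largest values of all, and COL6A3 took 1.6 and 1.7% and IGFBP5 1.33 and 1.03% of each library's total. COL1A1 and COL1A2, which together form type I collagen, rose to 60705 and 67057 and to 38540 and 41287, from no more than 32.7 in any parental library. COL3A1, the fibrillar chain that fibroblasts make beside them, was at 11.1 and 21.0 in parental cells and at 16.7 and 31.5 in PBRT15, and it was not called.

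Further large rises follow, and those of interferon-stimulated genes are given with their list. VCAM1, through which leukocytes attach to other cells, was at 0 and 1.21 and then at 2197 and 2791. ITGBL1, a secreted protein related to integrin beta chains, had 0 in both parental libraries and stood at 1282 and 1183 in PBRT15. LOXL1, which crosslinks elastin and collagen, had 0 in both parental libraries and stood at 1465 and 1569. CCDC80, a matrix protein, rose from 17.0 and 51.3 to 54606 and 27650, so its PBRT15 libraries lay apart from each other and both lay far above the parental ones. QPRT, an enzyme that makes a precursor of NAD, rose from 0.963 and 0 to 1626 and 1902. Among genes with large values in both groups, FTL, the light chain of the iron store ferritin, rose from 25830 and 24370 to 175221 and 190661, and CD44, the hyaluronan receptor, rose from 52625 and 55881 to 224465 and 195273.

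The genes below are among the largest falls with a parental mean of at least 1000. TGFA, a ligand of the EGF receptor, fell from 22151 and 18245 to 3.20 and 2.92 (log2 fold change -12.27, SE 0.38, adjusted p = 7.76e-05). SERPINA3, an acute phase protease inhibitor, fell from 25825 and 12704 to 1.72 and 13. PTPRZ1, a receptor phosphatase of glia, fell from 7152 and 5906 to 3.96 and 7.45. GRIK3, a glutamate receptor subunit, fell from 3169 and 3350 to 0 and 1.77, and OPRD1, the delta opioid receptor, fell from 3132 and 3297 to 4.05 and 3.82. ACAN, the core protein of the cartilage proteoglycan aggrecan, fell from 6706 and 5648 to 12 and 2.31. DNAH9, a motor protein of cilia, was at 2377 and 2145 in parental cells and listed at 0 in both PBRT15 libraries, and EXTL1, a glycosyltransferase, was at 1426 and 1171 and then listed at 0 in both. In each of these genes no PBRT15 library came near a parental one.

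In both parental libraries 119 of the genes tested were listed at 0, of which 24 had a mean of at least 100 in PBRT15. In both PBRT15 libraries 86 were listed at 0, of which 18 had a parental mean of at least 100. Beside the genes named above, CALHM5 and IRAG1 were listed at 0 in parental cells and stood at 298 and 347 and at 276 and 298 in PBRT15, while ITIH6 and TRIM51 were at 1155 and 689 and at 340 and 260 in parental cells and listed at 0 in PBRT15. A gene listed at 0 may still be transcribed below the depth of these libraries.

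Interferon-stimulated genes were the list with the largest share of rises among those with at least 10 members tested. Interferons are secreted alarm proteins that switch on antiviral genes through a complex that holds STAT2 and IRF9 and binds DNA at a motif called the interferon-stimulated response element. Of 70 interferon-stimulated genes tested, 62 rose and none fell by limma's test, against 13.8% and 10.1% over all genes. At an unadjusted p under 0.05 the list held 69 higher and 0 lower members. The median log2 fold change of its members was 3.21 against -0.01 over all genes, and 2.91 without the 5 members listed at 0 in a group. Short stretches upstream of 4 of them are shown because the letters of the element lie in them. They were taken from RefSeq's promoters (GRCh38.p14), 5′ to 3′ on the gene's strand, and capitals mark GAAA, any 2 bases and GAAA again or, on the other strand, TTTC, any 2 bases and TTTC. The genes are 4 of the largest rises of the list whose 250 bases before the start hold the motif and whose promoter is in the table. Not every chromosome entered this choice.
IFITM1, chr11:313990-314019, plus strand: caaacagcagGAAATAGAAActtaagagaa
EPSTI1, chr13:42992272-42992301, minus strand: ctgattctgaGAAACCGAAActcagctgtt
IFI27, chr14:94110625-94110654, plus strand: cagTTTCGGTTTCctgGAAAATGAAAccta
CXCL10, chr4:76023699-76023728, minus strand: tcatgttttgGAAAGTGAAAcctaattcac
The motif was found in the 250 bases before the start of 26 of the 48 risen interferon-stimulated genes with a promoter in the table (54.2%), in 1 of the 7 that were not called (14.3%), and in 839 of 27305 promoters in all (3.07%). IFI27 held it on both strands, 3 bases apart. A match is a description of the letters and was not tested as a binding site. The median given with each further list is likewise that of its members' log2 fold changes. Counts and medians cover the members that passed the filter, and a member near 0 in 1 group passed only through the other, in which it had to be higher.

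Several antiviral effectors rose from values near 0. IFITM1, a membrane protein that blocks virus entry, was at 1.22 and 2.21 in parental cells and at 4803 and 5897 in PBRT15 (log2 fold change 10.96, SE 0.69, adjusted p = 0.000517). Its neighbour IFITM3, with closely similar sequence, rose from 1379 and 1409 to 19338 and 22057, and reads may be shared among the IFITM genes. XAF1, an inhibitor of XIAP, had 0 in both parental libraries and stood at 2133 and 2194, and OASL, of the oligoadenylate synthetase family, was listed at 0 and stood at 1944 and 1466. EPSTI1 rose from 1.63 and 0.773 to 822 and 631. IFI27 rose from 35.4 and 55.0 to 10528 and 11079. ISG15, a ubiquitin-like protein, rose from 12 and 12.3 to 1465 and 1153. Parts of the complex that passes on the signal rose too. STAT2 rose from 774 and 795 to 4941 and 4830, and IRF9 from 206 and 174 to 1190 and 1155. The transcription factors IRF1 and IRF7, themselves induced by interferon, rose from 164 and 204 to 1766 and 1911 and from 12.6 and 32.4 to 391 and 344. ISG20 was among the 8 members not called (96.5 and 125 against 102 and 103).

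Genes of antigen presentation by MHC class I rose as well. This pathway carries peptides, cut by the proteasome, to the cell surface on class I molecules such as HLA-B and HLA-C, bound to B2M. Of 21 members tested 16 rose and none fell by limma's test (18 higher and 0 lower at an unadjusted p under 0.05), with a median log2 fold change of 1.45. NLRC5, the transactivator of class I genes, rose from 36.7 and 72.9 to 450 and 316, PSMB9, a subunit of the immunoproteasome, from 273 and 297 to 1356 and 1541, and HLA-B from 1743 and 1501 to 7307 and 9386. Reads of class I genes can be shared, and their split between the genes is uncertain. In contrast, the 6 class II genes tested had no common direction. CIITA, the class II transactivator, and HLA-DMA rose (38.9 and 67.2 to 234 and 176 for CIITA), whereas HLA-DMB, HLA-DPA1 and CD74, the invariant chain, fell, and HLA-DRA was at 16.3 and 18.3 in parental cells and at 23.3 and 25.7 in PBRT15. The call of CIITA was lost without parental library 1 or either PBRT15 library (adjusted p = 0.0504 to 0.0733), that of HLA-DMA without parental library 1 or PBRT15 library 2 (0.0872 and 0.0516), and that of CD74 with a pseudocount of 10 (log2 fold change -0.99).

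**Figure D2:**
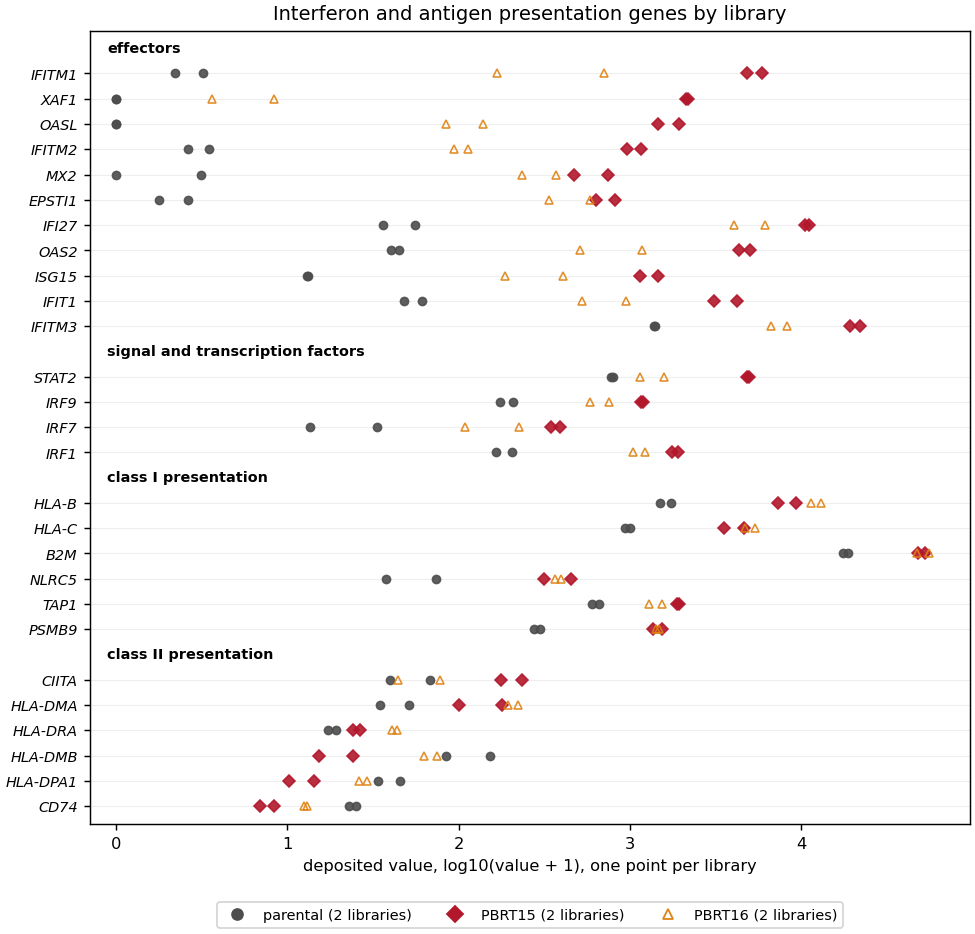
Deposited values of interferon and antigen presentation genes in each of the 6 libraries, on a log10(value + 1) axis, with circles for parental, diamonds for PBRT15 and open triangles for PBRT16 libraries. In every effector, transcription factor and class I gene drawn, both PBRT15 libraries lie above both parental ones, whereas HLA-DMB, HLA-DPA1 and CD74 lie below them.

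Chemokines, cytokines and complement formed a mixed group of secreted signals. Of 13 chemokines tested, of 43 listed, 9 rose and 3 fell (median 1.85). CXCL12, which attracts cells bearing CXCR4, rose from 0.611 and 1.89 to 2271 and 2656. CCL5 and CXCL10, both induced by interferon, had 0 in both parental libraries and stood at 535 and 284 and at 208 and 114 in PBRT15. CCL20, which attracts cells with the receptor CCR6, fell from 294 and 275 to 1.54 and 1.46, and CX3CL1, a membrane-bound chemokine, fell from 463 and 543 to 36.4 and 74.9. Among 39 interleukins, related cytokines and receptors 20 rose and 8 fell (median 1.12). IL1B, the main secreted interleukin 1, fell from 23208 and 23758 to 47.8 and 56.1, and IL1A fell from 220 and 164 to 0 and 3.82. IL6 rose from 40.6 and 54.6 to 2109 and 2855. CSF1, the growth factor of macrophages, rose from 750 and 857 to 18081 and 20047. The receptor chains through which IL6 family cytokines act rose together with IL6, LIFR from 3855 and 3696 to 25757 and 28211, OSMR from 4949 and 4157 to 14241 and 14904 and IL6ST from 4519 and 5546 to 20827 and 23094, while the ligands LIF and IL11 fell.

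In the complement system, 10 of 19 members tested, of 38 listed, rose and 1 fell, with a median log2 fold change of 1.92. C1S and C1R, the proteases that start the classical pathway, rose from 15.5 and 12.1 to 21797 and 25367 and from 347 and 449 to 28823 and 32395. MASP1, the protease of the lectin pathway, rose from 1.34 and 0 to 1179 and 1029, and CFI, which inactivates complement on host cells, from 0.980 and 1.00 to 421 and 660. CD59, which protects cells from lysis by complement, was the member that fell, from 46905 and 48368 to 21101 and 21476.

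Output genes of the ERK pathway did not move as a block. ERK induces its own inhibitors, the SPRY and DUSP genes, so these serve as readouts of its activity. Of 30 output genes 10 fell and 2 rose, a share of falls of 33.3% against 10.1% over all genes, and the median log2 fold change was -0.48. SPRY4 fell from 17224 and 14983 to 2525 and 2349. SPRY2 fell from 4383 and 4374 to 1045 and 1449, and DUSP4, a phosphatase of ERK, from 4047 and 4370 to 1380 and 1241. The immediate early gene EGR3 fell from 1163 and 981 to 2.67 and 73.0, where the PBRT15 libraries lay far apart and the call was lost without parental library 1, parental library 2 or PBRT15 library 1 (adjusted p = 0.14, 0.126 and 0.0786) and without a filter (0.0791). LIF fell from 11968 and 13775 to 1091 and 2756. However, DUSP6, the ERK phosphatase most often used as a readout, was at 3521 and 3998 in parental cells and at 2494 and 3897 in PBRT15 (log2 fold change -0.27, 95% interval -1.64 to 1.11), and ETV5, FOSL1 and PHLDA1 were not called either. CCND1, cyclin D1, was at 6269 and 6812 and then at 10329 and 8511, with an adjusted p of 0.0378 and a fold change under 2. SPRY1 rose from 80.7 and 126 to 572 and 729, with an adjusted p of 0.0504 without parental library 1.

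Kinases and adaptors of the pathway were mostly not called. Of 30 tested, 5 rose and 2 fell (median 0.10). MAP3K8, also called COT, which can activate MEK without RAF, rose from 9.14 and 17.1 to 75.5 and 138, and MAPK10, a neuronal JNK, from 13.3 and 8.57 to 79.0 and 89.1. KSR2, a scaffold of the pathway, fell from 105 and 83.9 to 1.01 and 0.955, and RASA2, which switches RAS off, fell from 1299 and 1026 to 461 and 452. BRAF, the drug's target, was at 1848 and 1613 and then at 1498 and 1790.

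Receptor tyrosine kinases changed in both directions, with 14 of 39 higher and 7 lower (median 0.71). ERBB3, the partner of ERBB2 in the response to neuregulin, fell from 1291 and 1089 to 3.83 and 4.06. EPHB1 fell from 1192 and 1219 to 6.01 and 5.48, ALK from 304 and 308 to 1.62 and 3.13, and NTRK2, the receptor of BDNF, from 485 and 595 to 5.04 and 13.3. ROR2, a receptor of WNT5A, rose from 3.56 and 3.62 to 270 and 404. PDGFRB rose from 161 and 273 to 3023 and 3557, and its sister PDGFRA from 6708 and 5673 to 14242 and 14763. EGFR rose from 1695 and 1799 to 3888 and 4115, and MET, the receptor of hepatocyte growth factor, from 202 and 265 to 1086 and 796. AXL, a receptor often high in melanomas with low MITF, was at 6859 and 8385 and then at 10403 and 6847, and its groups overlapped.

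Growth factors also changed in both directions, with 16 of 39 higher and 6 lower (median 0.85). TGFA was described above. GDNF, which acts through RET, fell from 6710 and 4592 to 430 and 555. BDNF rose from 86.4 and 67.0 to 2257 and 1873, in cells where its receptor NTRK2 had fallen. ANGPT2, a vessel-destabilising ligand of the receptor TEK, rose from 5.93 and 6.70 to 3297 and 2700, and TEK itself rose from 1.00 and 6.79 to 242 and 215.

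**Figure D3:**
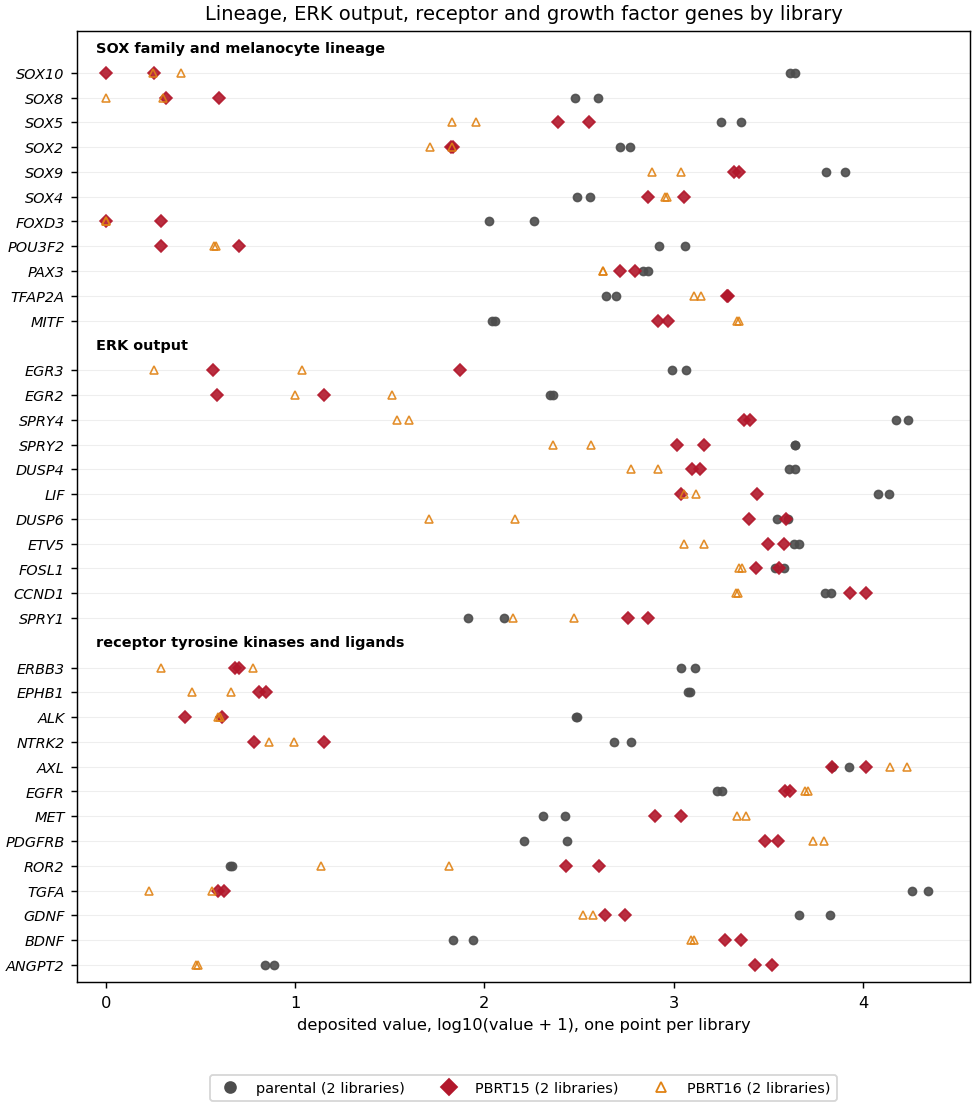
Deposited values of lineage, ERK output, receptor and growth factor genes in each of the 6 libraries on a log10(value + 1) axis, with circles for parental, diamonds for PBRT15 and open triangles for PBRT16 libraries. In DUSP6 and FOSL1 the PBRT15 and parental libraries overlap, whereas in SPRY4 both PBRT15 libraries lie below the parental ones and above the PBRT16 ones.

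Genes of the extracellular matrix changed in several classes. The summed value of all collagen chains was 36790 and 38903 in parental cells and 712449 and 739368 in PBRT15, of which COL6A3 was the largest part. Of 28 chains 13 rose and 6 fell (median 0.70). Among the falls, COL9A3, a chain of cartilage collagen, went from 1339 and 1416 to 2.95 and 7.44, COL22A1 from 6389 and 5718 to 178 and 201 and COL19A1 from 796 and 601 to 0 and 2.50. Matrix glycoproteins and proteoglycans counted 28 higher and 6 lower of 56 (median 1.04). FBLN5, which organises elastic fibres, rose from 2.06 and 2.74 to 1362 and 1196, CCN4, a WNT-induced matrix protein, from 85.7 and 111 to 15011 and 18739, and THBS1, thrombospondin 1, from 7829 and 9439 to 85736 and 93626. TNC, tenascin C, fell from 53476 and 64134 to 2255 and 3363, and TNR, its relative of the nervous system, from 25.6 and 27.4 to 2.48 and 3.11.

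Matrix proteases and their inhibitors were split, with 20 of 55 higher and 14 lower (median 0.52). MMP19 rose from 1.84 and 0 to 562 and 531, whereas MMP16, a membrane-bound protease, fell from 8141 and 5987 to 93.0 and 80.0. SERPINE2, an inhibitor of thrombin and plasminogen activators, fell from 73458 and 60024 to 1809 and 1574. Integrins and laminins counted 10 higher and 4 lower of 32 (median 0.43). ITGA8 rose from 47.0 and 22.5 to 7664 and 9085 and ITGA11, a collagen receptor chain, from 120 and 66.4 to 1547 and 1733. ITGA9 fell from 3607 and 2969 to 66.0 and 70.3, ITGB8 from 17580 and 14625 to 741 and 1612 and ITGB3 from 38453 and 27184 to 3040 and 3195. Among smooth muscle and contractile genes 21 of 44 rose and 3 fell (median 0.93). FLNC, a filamin of muscle, rose from 112 and 145 to 5110 and 5035. TAGLN rose from 41.8 and 34.9 to 2130 and 663, and the 2 PBRT15 libraries differed widely. VIM, the intermediate filament vimentin, was at 80882 and 84822 and then at 121848 and 112115, a change of less than 2-fold.

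Because several of these genes are used as markers of other cells, each marker list was counted in full. Of 18 fibroblast and pericyte markers, 12 passed the filter, 9 of them rose and 1 fell, and the list summed to 12192 and 9588 in parental cells and to 611591 and 634281 in PBRT15. In both groups COL3A1 was at 31.5 or less, and LUM, POSTN, DPT, MFAP5, PDPN and TCF21 were at 3.385 or less. PRRX1, a mesenchymal transcription factor, fell from 4962 and 3215 to 760 and 804. Leukocyte markers summed to 862 and 1274 in parental cells and to 2744 and 2291 in PBRT15, nearly all from CD68, which rose and is also made by other cells. The call of CD68 was lost without parental library 1 or either PBRT15 library (adjusted p = 0.067 to 0.104) and without a filter (0.063). PTPRC, the pan-leukocyte antigen, was at 0.583 or less, and CD3D, CD3E and TYROBP were listed at 0 in all 4 libraries. Endothelial markers summed to 180 and 274 and to 674 and 717, with TEK, ERG and EGFL7 higher. The call of ERG was lost without parental library 2 or PBRT15 library 2 (adjusted p = 0.0521 and 0.0704). That of EGFL7 was lost without either PBRT15 library (0.0675 and 0.0783) and, by its fold, without parental library 1 (log2 fold change 0.83). PECAM1, CDH5 and VWF were below the filter, at 28, 2.24 and 23.1 or less. Of 4 keratinocyte markers tested KRT14 and KRT15 fell and PERP and KRT10 were not called. The part of other cell types in the differences was not tested further. In bulk RNA fewer cells of a type and less RNA per cell cannot be told apart.

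In the WNT pathway, 16 of 41 members rose and 5 fell (median 0.13). WNT5A, a ligand that mostly signals without beta-catenin, rose from 1253 and 1209 to 15390 and 14115. The secreted antagonist DKK1 rose from 19.8 and 16.2 to 3973 and 1416. LEF1, the nuclear partner of beta-catenin, fell from 2068 and 1831 to 334 and 336, and the ligand WNT7B from 2140 and 2575 to 788 and 329. The call of WNT7B was lost without either parental library (adjusted p = 0.0624 and 0.0745). SFRP1, another antagonist, was at 48297 and 42086 and then at 37750 and 34193 and was not called. In the TGF-beta and BMP list 22 of 49 rose and 6 fell (median 0.94). ID3 and ID2, direct targets of BMP signals, rose from 202 and 202 to 5359 and 6264 and from 85.2 and 54.6 to 1760 and 1779, whereas ID4 fell from 220 and 136 to 10.1 and 12.4. The BMP antagonist CHRDL1 fell from 18311 and 14300 to 42.4 and 39.9, and the ligand BMP8B from 1610 and 1255 to 9.12 and 4.77. YAP and TEAD targets counted 12 higher and 3 lower of 28 (median 0.85). CCN1 rose from 924 and 1111 to 12759 and 14397. WWTR1, also called TAZ, is itself a coactivator of this group and fell from 30116 and 26619 to 5600 and 8831.

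Developmental transcription factors outside the SOX and HOX families were more often higher than lower, 29 against 9 of 82 (median 0.50). PRRX2 rose from 1.09 and 0 to 225 and 219, PITX1, a hindlimb regulator, from 23.9 and 34.5 to 619 and 725, and TBX1, which was listed at 0 in parental cells, stood at 30.8 and 26.4. SNAI2, a regulator of cell migration in the neural crest, rose from 2046 and 1375 to 5724 and 6129. EBF3 fell from 514 and 425 to 82.6 and 68.2. Of 34 HOX genes 7 rose and 6 fell (median 0.10). HOXC6, HOXC8, HOXC10 and HOXC11, which share 1 cluster on chromosome 12, rose, with log2 fold changes of 2.68, 1.54, 1.33 and 1.69. The other members of this cluster are not described. Over all of chromosome 12, 25% of the genes tested rose (median 0.475). Of the falls HOXB5, HOXB8 and HOXB9 share the HOXB cluster on chromosome 17 with HOXB2, which rose by 2.08 on the log2 scale. The call of HOXB5 (adjusted p = 0.0475) was lost without any 1 of the 4 libraries (0.11 to 0.193), with a pseudocount of 0.5 and without a filter. That of HOXB8 was lost without either PBRT15 library (0.0767 and 0.0718), without a filter (0.0513) and, by its fold, without parental library 1 (log2 fold change -0.78).

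In the synapse and neuronal adhesion list 14 of 35 tested, of 76 listed, fell and 6 rose. The median log2 fold change was -0.61, and -0.51 without the member listed at 0 in a group. GABRA3, a subunit of the GABA receptor, rose from 16.2 and 15.0 to 785 and 976. NRXN3, a presynaptic adhesion protein, fell from 926 and 754 to 2.69 and 9.46, and the glutamate receptor subunit GRIK2 from 629 and 539 to 15.7 and 18.3. Voltage-gated and related ion channels went both ways, 16 higher and 17 lower of 50 tested and 87 listed. The median was 0.48, and 0.13 without the 2 members listed at 0 in a group. The potassium channels KCNA2 and KCNN3 fell from 1075 and 1021 to 0.670 and 3.77 and from 3184 and 3892 to 79.5 and 148. CACNA1C, the pore of the cardiac calcium channel, rose from 359 and 243 to 1861 and 3003. Of 51 semaphorins, ephrins, netrins, slits and their receptors 12 rose and 13 fell (median 0.31). NTN4 rose from 181 and 125 to 3472 and 3067, and the netrin receptor DCC was at 168 and 75.6 in parental cells and listed at 0 in both PBRT15 libraries.

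Among cadherins, CDH2, or N-cadherin, fell from 1692 and 1734 to 123 and 80.9 and CDH6 rose from 197 and 172 to 6274 and 4877, within a list of 46 with 20 tested, where 6 rose and 7 fell (median 0.08). FAT1 rose from 17087 and 17606 to 49585 and 52139. Of 53 clustered protocadherins 22 passed the filter, and 12 of these were higher and 1 lower. The median was 1.40, and 1.03 without the 3 members listed at 0 in a group. The summed value of the list was 11799 and 10483 in parental cells and 6811 and 10369 in PBRT15. PCDHB2 was listed at 0 in parental cells and stood at 96.2 and 151. Genes of this cluster share exons or close sequence, so their split is uncertain.

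Metabolic and detoxifying genes rose in part. Of 54 antioxidant, glutathione and drug metabolism genes 24 rose and 1 fell, with a median log2 fold change of 0.94. ABCC2, a drug export pump, rose from 104 and 77.3 to 1383 and 1460, TXNRD1, thioredoxin reductase, from 11365 and 11037 to 35859 and 41295 and AKR1C3, an aldo-keto reductase, from 1.04 and 0 to 35.8 and 73.4. In the metallothioneins, which bind zinc and copper, MT1F and MT1E rose and MT2A and MT1X were not called, and MT1E had a log2 fold change of 0.98 without parental library 1. Of 52 lysosomal genes 12 rose and none fell by limma's test, with 26 higher and 8 lower at an unadjusted p under 0.05 (median 0.39). GPNMB, a glycoprotein of melanosomes and lysosomes, rose from 1.65 and 8.01 to 1090 and 1737. In the cholesterol and fatty acid list 7 of 39 rose and 2 fell (median 0.49). These are shares of 17.9% and 5.13%, near the 13.8% and 10.1% over all genes. FASN, the fatty acid synthase, rose from 4547 and 4256 to 18927 and 12939, and its call was lost without parental library 1, parental library 2 or PBRT15 library 1 (adjusted p = 0.0679, 0.071 and 0.0629). ACSS2, which makes acetyl-CoA from acetate, fell from 3443 and 3220 to 1104 and 1137.

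In the hypoxia and glucose list 10 of 45 rose and 2 fell (median 0.43). EPAS1, which encodes HIF-2alpha, rose from 328 and 334 to 13807 and 14690, and SLC2A1, a glucose transporter, from 1803 and 2048 to 5347 and 8612. The glycolytic regulator PFKFB4 fell from 1479 and 1520 to 171 and 338, and LDHA, lactate dehydrogenase A, was lower by less than 2-fold (83998 and 86914 against 43814 and 47591). The call of SLC2A1 was lost without either parental library or PBRT15 library 2 (adjusted p = 0.0856 to 0.108) and without a filter (0.0565), and that of PFKFB4 without either parental library or PBRT15 library 1 (0.066 to 0.0781). In the list of retinoid and nuclear receptor genes 12 of 40 rose and 5 fell (median 0.73). CRABP2, which carries retinoic acid, rose from 625 and 868 to 6467 and 6846, and NR1H4, the bile acid receptor, was listed at 0 in parental cells and stood at 157 and 240. Of 25 immune checkpoint ligands and suppressors 10 rose and 4 fell (median 0.34). CD24 rose from 57.8 and 77.4 to 6434 and 6624, IDO1 from 0 and 0.681 to 44.7 and 53.9, and CD70 fell from 1117 and 1251 to 75.3 and 86.5. CD274, or PD-L1, was at 134 and 59.5 and then at 77.0 and 49.9. Of 30 imprinted genes 5 rose and 5 fell (median -0.28), among them H19, a fetal RNA that fell from 4668 and 5911 to 53.9 and 62.5, and MEG3, which rose from 7742 and 5894 to 29651 and 30332.

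Genes of the basic machinery of the cell were seldom called. Of 77 cytosolic ribosomal protein genes, with a median of -0.14, 1 was called (RPLP1, from 5828 and 8466 to 15113 and 15676), and of 72 genes of DNA replication and mitosis, with a median of -0.26, 1 was called (POLD1, from 369 and 435 to 922 and 1068). The call of RPLP1 was lost without PBRT15 library 2 (adjusted p = 0.055) and, by its fold, without parental library 1 (log2 fold change 0.86). None of 32 proteasome subunits and none of 20 tRNA synthetases passed limma's test at 2-fold (medians -0.20 and -0.21). At an unadjusted p under 0.05 and any fold, 6 proteasome subunits were lower, and 3 synthetases were higher and 7 lower. Nuclear-encoded subunits of the respiratory chain counted 4 higher and 1 lower of 75 (median 0.04). The 13 protein genes of the mitochondrial genome had a median log2 fold change of -0.66. By the adjusted p alone 12 of them were lower, and none was lower by 2-fold. All mitochondrial transcripts took 6.3 and 6.15% of the total in the parental libraries and 4.09 and 4.1% in PBRT15. TOP2A, which untangles DNA in dividing cells, was at 24496 and 24676 and then at 26378 and 20578, and MKI67 at 23358 and 23313 and then at 18516 and 13434. EEF1A1, a translation elongation factor and among the 10 genes with the largest values in both groups, was at 200009 and 209764 and then at 196226 and 205021. Of the genes with means above 10000 and the narrowest intervals around 0, CTNNA1, alpha-catenin, had a log2 fold change of -0.14 (95% interval -0.41 to 0.13) and CTSZ, a lysosomal protease, one of -0.03 (-0.31 to 0.24).

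Apoptosis regulators were called at about the share of all genes, 6 of 46 higher and 5 lower (median 0.11). CASP1, the caspase that activates interleukin 1, rose from 3.26 and 1.28 to 323 and 435, and TRAF1, an adaptor of TNF receptors, fell from 7742 and 6081 to 106 and 106. The inhibitors of apoptosis that the study followed were not called. BIRC2 was at 3353 and 3072 and then at 3972 and 2561, and XIAP at 2023 and 1877 and then at 1720 and 1637. BIRC3 was higher by less than 2-fold in PBRT15, 346 and 322 against 226 and 212 (adjusted p = 0.0315), and stood at 1866 and 1481 in PBRT16. In the ER stress and amino acid list 5 of 42 rose and 4 fell (median -0.06). STC2 rose from 496 and 772 to 3677 and 2182 (adjusted p = 0.0543 without parental library 1), and the amino acid transporter SLC7A5 fell from 6675 and 7491 to 1349 and 1569. Of 38 heat shock genes 8 rose and 2 fell (median -0.30), and of 40 G1 regulators and p53 targets 5 rose and 1 fell (median -0.04). HSPB8, a small heat shock protein, was listed at 0 in parental cells and stood at 76.3 and 91.8. CDK6, a partner of cyclin D, fell from 12031 and 11200 to 5384 and 6079, and its fold was under 2 without parental library 1 or PBRT15 library 1 (log2 fold change -0.97 and -0.93). Of 23 keratin and epithelial junction genes tested, of 65 listed, 2 rose and 8 fell (median -0.50, and -0.29 without the member listed at 0 in a group), and of 6 cancer-testis antigens tested, of 78 listed, 1 was called (TEX15, which fell from 1488 and 1395 to 410 and 421).

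**Figure D4:**
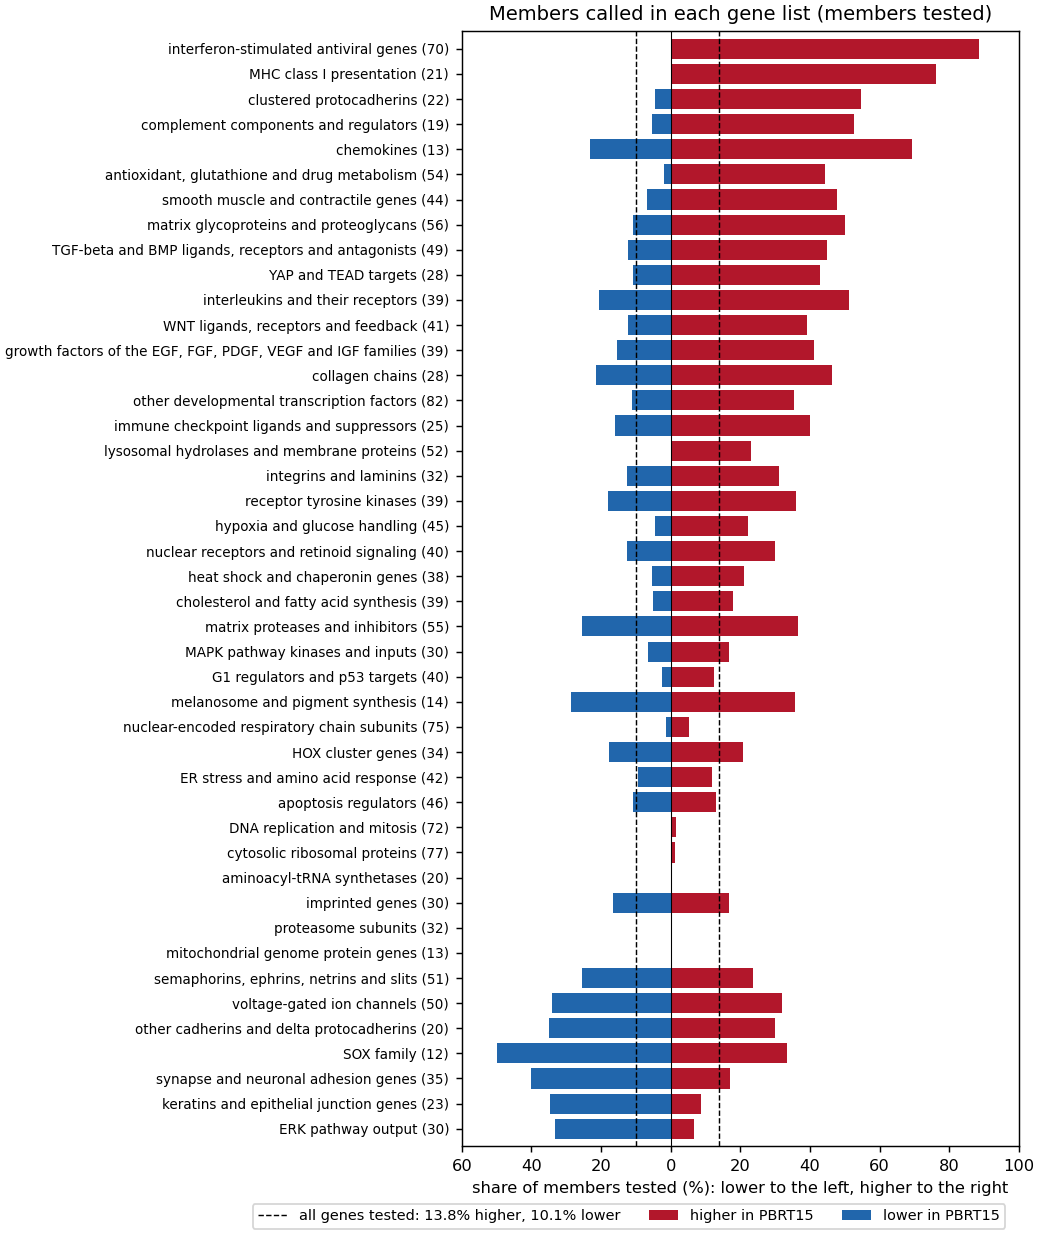
Share of members called in each gene list with at least 10 members tested, with higher members to the right in red and lower members to the left in blue, and the number tested in brackets. Dashed lines mark the share over all genes tested, 13.8% higher and 10.1% lower, and the interferon list reaches 88.6% higher.

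Among the long noncoding RNA genes, some of the largest changes lay beside coding genes that moved the same way. THY1-AS1, on the strand opposite to THY1, had 0 in both parental libraries and stood at 1158 and 1152 in PBRT15, and LOXL1-AS1, which overlaps LOXL1, was listed at 0 and stood at 494 and 454. The library kit keeps the strand, but no source used here states how the counting treated it, so reads of overlapping partners may not be separated. LINC00842 was listed at 0 in parental cells and stood at 553 and 469. LINC02119 fell from 1013 and 832 to 0 and 1.01, and LINC02732 from 666 and 751 to 0 and 1.48.

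By chromosome the calls were uneven. On chromosome 12, 212 of 849 genes tested rose and 40 fell, with a median log2 fold change of 0.475, and on chromosome 19, 208 of 996 rose and 53 fell, with a median of 0.425. On chromosome 13, 30 of 283 rose and 47 fell (median -0.343), and on chromosome 21, 16 of 200 rose and 35 fell (median -0.302). On the other autosomes the medians lay between -0.137 on chromosome 2 and 0.11 on chromosome 22. No DNA data were examined here, so the copy number of these chromosomes was not tested.

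PBRT15 was set against its sister line PBRT16 to see which of its differences from parental cells were shared. Only genes that passed the filter in the parental and PBRT15 libraries were tested, so genes high in PBRT16 alone could not be called. Over all 6 libraries 16565 genes passed the same filter, against the 16018 tested. PDGFB, for example, was at 0.78 and 1.47 in PBRT15 and at 275.4 and 227.5 in PBRT16 and was left out. Between the lines 1425 genes (8.90% of those tested) were called, and 888 of the 3826 genes called against parental cells were among them. The 2 comparisons use the same PBRT15 libraries, so the counts are not independent. Of these, 429 had risen in PBRT15 and were higher than in PBRT16, 93 had risen and were lower than in PBRT16, 277 had fallen and were lower still than in PBRT16, and 89 had fallen and were higher than in PBRT16. In place of 888, 524 genes were called in both without PBRT15 library 1, 555 without PBRT16 library 1 and 572 without PBRT16 library 2, and the split above was not recounted. THY1 was at 8.14 and 6.84 in PBRT16, near its parental values, and 11.18 higher in PBRT15 on the log2 scale (SE 0.78, adjusted p = 0.00298). COL1A2 was at 19.9 and 15.4 in PBRT16, ANGPT2 at 1.99 and 2.06, ISLR, a mesenchymal secreted protein, at 6.41 and 4.82, and THY1-AS1 was listed at 0. In the other direction OLR1, a receptor of oxidised lipoprotein, was at 390 and 156 in PBRT15 and at 8062 and 5195 in PBRT16, and CADM3, an adhesion protein, was at 132 and 117 against 2255 and 2007. ADAM12, a metalloprotease, was at 7854 and 7038 in parental cells, at 734 and 552 in PBRT15 and at 9067 and 12154 in PBRT16.

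The lines also differed in some genes of the groups described above, and not in others. XAF1, at 2133 and 2194 in PBRT15, was at 7.39 and 2.62 in PBRT16. IFITM1 and OASL were also called higher in PBRT15 than in PBRT16. CXCL10 was at 354 and 195 in PBRT16, NLRC5 at 393 and 365, PSMB9 at 1470 and 1420 and HLA-B at 13128 and 11459. These were not called between the lines. Nor were the rises C1S, LOXL1, CCDC80, IL6 and CSF1 or the falls S100B, TGFA and SERPINA3. DUSP6, which overlapped its parental values in PBRT15, was at 49.8 and 145 in PBRT16, and SPRY4 at 33.5 and 39.2 (log2 differences between the lines of 5.18 and 6.03, adjusted p = 0.00751 and 0.000213). CXCL12 was lower in PBRT15 than in PBRT16, where it stood at 11508 and 11216. SOX10 was at 1.5 and 0.778 in PBRT16, and it was not called between the lines (log2 difference -0.65, SE 0.33, adjusted p = 0.235).

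**Figure D5:**
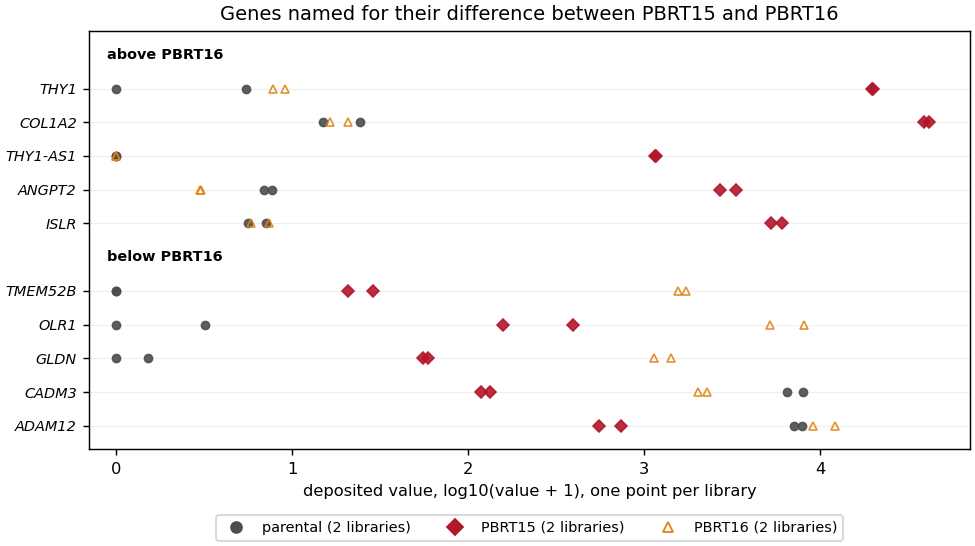
Deposited values in each of the 6 libraries, on a log10(value + 1) axis, with diamonds for PBRT15, open triangles for PBRT16 and circles for parental libraries. The genes have the 5 largest differences in each direction between PBRT15 and PBRT16 among genes called against parental cells and between the lines. Only genes with a mean of at least 1000 in the higher line were taken. In the upper 5 genes PBRT16 lies with the parental libraries and PBRT15 far above them.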

How the data were processed

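Messenger RNA of 6 libraries (1205LuTR parental, PBRT15 and PBRT16, 2 each) was sequenced in pairs from a stranded kit. Per the study's methods and the submitters' processing notes, the authors used STAR (version 2.6.1a in the notes) on human genome GRCh38, counted reads per gene with RSEM and normalised the counts with DESeq2. The deposited signal per gene is such a normalised count. Between 7.89 and 45.6% of the values below 20 in a library were whole multiples of its commonest lowest value within 0.01, so whole reads could not be recovered, no test for counts was run and each library's raw depth is unknown. The 45 copies of genes in the pseudoautosomal regions were left out. Gene names, types and GRCh38 coordinates came from GENCODE version 44, to which 60357 of 60617 identifiers matched without their version number.

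Values were tested as log2(value + 1), without rescaling, with limma 3.58.1 in R 4.3.3. All 6 libraries entered 1 fit with 3 groups, with 3 residual and 2.01 prior degrees of freedom, and p-values are two-sided with Benjamini-Hochberg adjustment over the 16018 genes tested. Without a fold threshold 3545 genes were higher and 3300 lower. Counts over 47 gene lists and 5 marker lists are descriptions, with no test of the list.

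Genes were named by a rule: the 15 largest rises and falls with a mean of at least 1000 in the higher group; in each list the 4 largest called rises and falls and the member with the largest mean, or every member where at most 15 were tested; the 10 largest means in each group; the 10 largest means among genes listed at 0 in the other group; the 5 largest differences in each direction between the lines; 5 rising and 5 falling long noncoding genes; 5 steady genes with means of at least 10000; SOX10, BIRC2, BIRC3 and XIAP; and the markers. The differences between the lines were ranked among genes called against parental cells and between the lines, with a mean of at least 1000 in the higher line. Part of the genes named by the rule are described. Chosen outside the rule, after their values were seen, were AXL, B2M, BRAF, C1R, CCND1, CD274, DUSP4, DUSP6, EGFR, ERBB2, ETV5, FOSL1, HOXC10, IFITM3, IL6ST, IRF1, IRF7, IRF9, ISG15, ISG20, KCNN3, LDHA, MET, MKI67, OSMR, PDGFB, SLC2A1, SNAI2, SPRY2, SPRY4, STAT2, THBS1, TOP2A and WNT5A, the further genes drawn in the plot by library (IFIT1, MX2, OAS2 and TAP1), and EPSTI1 and IFI27, taken for their motifs. Some genes are not reported here. The members, lists and rule were chosen with earlier results of these data known. Motifs were searched in the 250 bases before the start in RefSeq's promoter table.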

Additional observations from a re-analysis of the deposited data

Results flagged for a closer look

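The 10 genes named for their difference between the resistant lines were each tested by limma's contrast of PBRT15 against PBRT16, which compares their changes from the same parental libraries. PBRT15 was higher by 11.2 on the log2 scale for THY1 (adjusted p = 0.00298), 11.1 for COL1A2 (0.000213), 10.2 for THY1-AS1 (3.35e-05), 9.95 for ANGPT2 (0.000104) and 9.74 for ISLR (0.000144). The log2 difference, PBRT15 minus PBRT16, was -6.06 for TMEM52B (adjusted p = 0.000336), -4.71 for OLR1 (0.0182), -4.47 for GLDN (0.00154), -4.08 for CADM3 (0.000698) and -4.04 for ADAM12 (0.00154). The genes were chosen for the size of this difference, and each line is 1 tumor. With 2 libraries in a group, no library was tested for standing apart from its group.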

How the results depend on the processing

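The counts of genes higher and lower (2203 and 1623) stayed within 1.5 times under other scalings, pseudocounts, the fit of 4 libraries, the mean-variance trend, no filter and protein-coding genes only, except as follows. With a filter of 100 in place of 10, 1067 genes were lower (11964 genes tested), and without a fold threshold 3545 were higher, 3300 lower and 1731 also differed between the lines. Under a test against a fold of 2, 983 were higher, 745 lower and 193 also differed between the lines. Leaving out each library in turn gave 1819 to 2160 higher, 1261 to 1610 lower and 524 to 650 also differing between the lines (888 with all 6), with 524 without PBRT15 library 1 and 555 and 572 without PBRT16 library 1 and 2. A left-out library leaves its group with 1 library, assumed to vary like the others. Scaling to the upper quartile shifted the median of all genes by -0.08 on the log2 scale and gave 2024 higher and 1799 lower. With a replicate block 2179 were higher and 1602 lower. Deviations of same-numbered libraries correlated at 0.0222, 0.0329 and 0.153 between pairs of groups over 16018 genes, so the numbers were not taken as a pairing.

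Of the 198 genes named in the text that were called, 161 lost their call in none of the 19 alternatives. Leaving aside the test against a fold of 2, 178 lost it in none, and no called gene changed sign. A gene left out of an alternative by its filter or by gene type was not tested there and was not counted as lost. Calls lost without parental library 1 were those of CD68, CDK6, CIITA, EDNRB, EGFL7, EGR3, FASN, HLA-DMA, HOXB5, HOXB8, MT1E, PFKFB4, RPLP1, SLC2A1, SPRY1, STC2 and WNT7B. Without parental library 2 those of EGR3, ERG, FASN, HOXB5, PFKFB4, SLC2A1, SOX4 and WNT7B were lost. Without PBRT15 library 1 those of CD68, CDK6, CIITA, EGFL7, EGR3, FASN, HOXB5, HOXB8 and PFKFB4 were lost, and without PBRT15 library 2 those of CD68, CIITA, EGFL7, ERG, HLA-DMA, HOXB5, HOXB8, RPLP1 and SLC2A1. The cause was not tested. Raw depth is unknown, so it cannot be said which low values lie under a counting limit.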
